A study of Mus musculus with 15 samples.

Results

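The genes described here are 40 genes of S phase and mitosis, measured in mouse liver on single-colour microarrays. They were taken as every gene probe, controls left out, whose gene name on the array is one of 40 listed symbols. All 40 symbols were found, on 52 of the 29522 gene probes, among 22032 gene symbols. They comprise 15 DNA replication genes, 23 mitosis genes and 2 regulators, E2f1 and Foxm1. Liver RNA came from CD1 males in 3 groups. The control group, C, was given saline and an empty plasmid. Group T was given the liver carcinogen diethylnitrosamine (DEN) and the empty plasmid. Group G was given DEN and a plasmid that carries HA-tagged Gas1 behind the strong, general CAG promoter. The methods give the injection of DEN (25 µg/g) or saline at 15 days of age, weekly delivery of 50 µg plasmid by hydrodynamic injection from week 28 to week 34, and sacrifice at 35 weeks. By the sample records, however, the mice were 10 weeks old. Hydrodynamic injection forces a large volume into a tail vein and transfects part of the liver, mainly cells near blood vessels. With a lacZ plasmid the paper found a minority of cells transfected, and it assumes a like share for the Gas1 plasmid. The share of cells that carried the plasmid in the group G livers is not given. The 15 arrays comprised 4 from C, 5 from T and 6 from G. A pair of arrays in C and a pair in T carry one RNA code and were averaged, which left 3, 4 and 6 samples, called mice below. The log2 values of these pairs differed with an SD of 0.146 and 0.143, against 0.291 or more and 0.235 or more for the other pairs of C and of T. Whether a code is 1 animal is not given in the sources used here, and with the 15 arrays taken as separate, T against C had 1947 calls over all symbols, against 525. The sources name the RNA as that of livers and do not say how much tumour a piece held.

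S phase begins where the helicase MCM2-7, loaded on DNA by CDC6 and CDT1, is switched on, and it needs nucleotides and the sliding clamp PCNA. Mitosis needs cyclin B with its kinase, the Aurora and Polo kinases, the motors and kinetochore proteins of the spindle, the checkpoint that holds it, and the ubiquitin ligase APC with its activator CDC20. E2F factors drive the replication genes in late G1, and FOXM1 with the MuvB complex drives the mitosis genes in G2. Adult hepatocytes are mostly quiescent, so these transcripts are scarce in resting liver and rise in regeneration and in tumours. GAS1, growth arrest specific 1, is a membrane protein known for holding cells before S phase.

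The promoters of the replication and mitosis genes differed in the short motifs they hold. RefSeq promoters of 300 bases, from 250 before to 50 after the start (build GRCm38.p6), were at hand for 33 of the 40 genes. Of these, 3 genes had 2 promoters, which gave 36. Each was searched on both strands for an E2F motif (the word TTCCCGC, the word TTCGCGC, the word TTGCCGC or the word TTGGCGC), the cell cycle homology region CHR (the word TTTGAA or the word TTCGAA) that MuvB binds, and the CCAAT box (CCAAT) of the factor NF-Y. A CHR motif was in 17 of 21 mitosis promoters (81%), in 2 of 14 replication promoters (14.3%) and in 19.2% of the 32851 promoters of the table. An E2F motif was in 9 of 14 replication promoters (64.3%), 4 of 21 mitosis promoters (19%) and 9.57% of all promoters. The CCAAT box was in 10 of 14 (71.4%), 19 of 21 (90.5%) and 37.4%. The promoters of the 2 replication genes with the largest changes below, and of 3 mitosis genes that were high together in single mice, follow 5′ to 3′ on the gene's strand, with every E2F, CHR and CCAAT match on either strand in capitals. E2F words of the 2 strands overlap in the Mcm6 promoter.
Mcm10, chr2:5012742-5013041, minus strand: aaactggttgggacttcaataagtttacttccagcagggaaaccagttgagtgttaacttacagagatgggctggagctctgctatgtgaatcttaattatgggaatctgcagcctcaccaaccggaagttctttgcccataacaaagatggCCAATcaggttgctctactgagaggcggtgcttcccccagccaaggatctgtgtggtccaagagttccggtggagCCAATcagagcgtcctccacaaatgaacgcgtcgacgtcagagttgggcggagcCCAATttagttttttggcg
Mcm6, chr1:128359656-128359955, minus strand: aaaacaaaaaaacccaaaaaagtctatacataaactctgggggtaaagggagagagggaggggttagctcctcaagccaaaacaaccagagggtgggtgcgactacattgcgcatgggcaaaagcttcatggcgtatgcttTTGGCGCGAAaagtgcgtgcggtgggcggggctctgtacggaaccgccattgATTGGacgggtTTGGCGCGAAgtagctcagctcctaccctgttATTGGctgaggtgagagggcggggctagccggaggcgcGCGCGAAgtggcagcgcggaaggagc
Cdc20, chr4:118437294-118437593, minus strand: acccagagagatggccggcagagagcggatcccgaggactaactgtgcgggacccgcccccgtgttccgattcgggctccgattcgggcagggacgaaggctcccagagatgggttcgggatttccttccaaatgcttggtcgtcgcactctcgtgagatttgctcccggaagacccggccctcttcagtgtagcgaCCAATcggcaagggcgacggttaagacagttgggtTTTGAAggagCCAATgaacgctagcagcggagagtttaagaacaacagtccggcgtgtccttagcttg
Ccnb2, chr9:70421505-70421804, minus strand: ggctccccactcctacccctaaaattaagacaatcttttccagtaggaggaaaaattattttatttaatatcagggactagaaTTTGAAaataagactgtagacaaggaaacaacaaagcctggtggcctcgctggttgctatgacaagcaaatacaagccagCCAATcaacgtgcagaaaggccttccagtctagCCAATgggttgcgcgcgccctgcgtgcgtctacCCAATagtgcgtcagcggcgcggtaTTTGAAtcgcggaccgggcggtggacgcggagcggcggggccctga
Plk1, chr7:122159185-122159484, plus strand: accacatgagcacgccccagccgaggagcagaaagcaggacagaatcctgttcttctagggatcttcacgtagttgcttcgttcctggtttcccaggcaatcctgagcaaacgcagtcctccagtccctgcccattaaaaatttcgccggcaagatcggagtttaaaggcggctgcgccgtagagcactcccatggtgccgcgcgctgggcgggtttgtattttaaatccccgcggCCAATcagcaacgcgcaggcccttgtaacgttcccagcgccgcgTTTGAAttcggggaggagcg
The Mcm10 promoter held 3 CCAAT boxes and no E2F or CHR word. That of Mcm6 held 5 E2F words and 2 CCAAT boxes. Those of Cdc20, Ccnb2 and Plk1 held CHR and CCAAT words and no E2F word. Mki67, Ube2c and Birc5, not printed, were also highest in mouse C1 and in mouse G1 of their groups. The Mki67 promoter held 1 E2F word, 2 CHR words and 3 CCAAT boxes. That of Ube2c held 1 CHR word and 6 CCAAT boxes, and that of Birc5 none of these words. A match is a description of the letters and not of a bound site.

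Across the series, 15707 to 29765 of 59305 spots per array were well above background, with a median of 19820.5 in C, 20991 in T and 25491 in G. All 10 hepatocyte markers were well above background on every array. Over its 3 probes together, the delivered gene did not separate the groups. Gas1 was at a normalised log2 level of 6.53 ± 0.20 in C (SD, n = 3), 6.54 ± 0.09 in T (n = 4) and 6.61 ± 0.11 in G (n = 6), with a G against T difference of 0.08 (SE 0.08, adjusted p = 0.768). The probes differed. One was above background on 1 of 4 C, no T and 4 of 6 G arrays. It was at 6.23 ± 0.25 in C (n = 3), 6.07 ± 0.04 in T (n = 4) and 6.36 ± 0.18 in G (n = 5, a spot of G2 being flagged). Its C mice (6.02 to 6.50) and G mice (6.10 to 6.52) overlapped. The brightest probe was at 6.98 ± 0.32 in C, 7.20 ± 0.20 in T and 7.07 ± 0.20 in G. Whether the 3 probes read the coding sequence carried by the plasmid is not given in the sources used here.

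The replication genes gave clear signals and most mitosis genes lay near the background. Of the 15 replication genes, 10 were well above background on all 15 arrays, and 2, Tyms and Cdc6, on none. Of the 23 mitosis genes, none was well above background on all 15 arrays, 7 were on 8 to 14, 8 on 1 to 7, and 8 on no array. These last 8 were Top2a, Aurkb, Bub1, Bub1b, Kif11, Ttk, Cenpf and Ect2. E2f1 was above background on 15 arrays and Foxm1 on 8. Over both lists and the regulators, 11 of 40 genes (27.5%) were measured on all arrays, against 38.5% of all symbols, and 10 (25%) on none, against 29.1%. The number of the 40 above background per array was 11 to 21 in C, 16 to 23 in T and 18 to 28 in G. This order, C below T below G at the medians (18, 20 and 26), was also that of the medians for all spots, and how far array signal sets it was not tested.

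**Figure D1:**
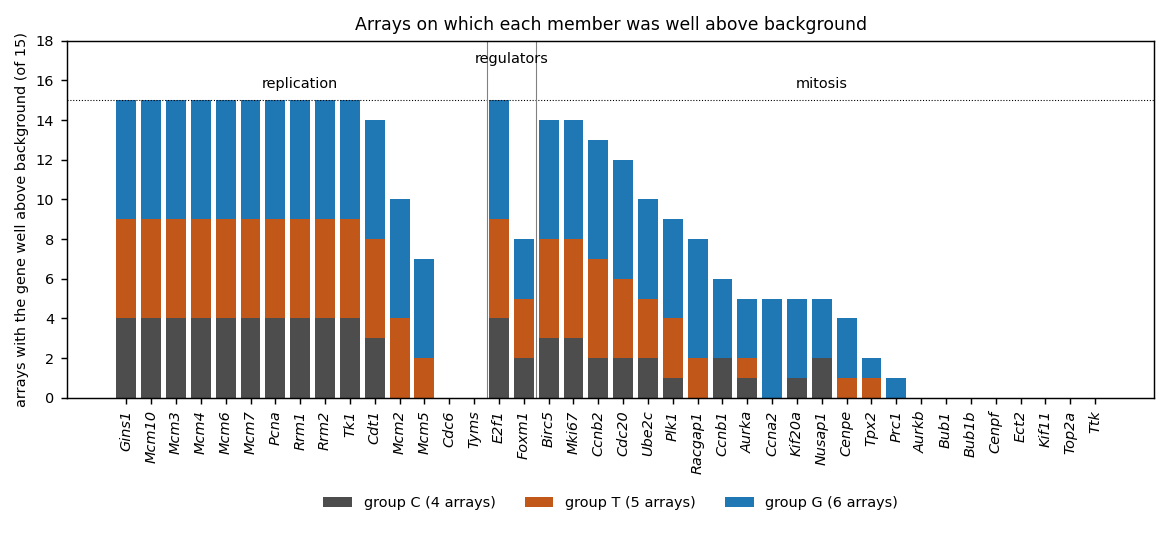
Number of arrays, of 15, on which each of the 40 genes was well above background, stacked by group (4 C, 5 T and 6 G arrays). The bars of 10 replication genes reach 15, no bar of a mitosis gene does, and 8 mitosis genes have no bar.

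None of the 40 genes passed the test between the DEN livers and the saline livers. In T against C, 0 of the 40 passed an adjusted p of 0.05 in limma, where 2.38% of all 22032 symbols did (525 symbols, 1.22% as higher in T and 1.17% as lower). The smallest adjusted p among them was 0.0903, that of Kif11. At an unadjusted p under 0.05 there were 4 of the 40, against 20.3% of all symbols. By direction, 20 of the 40 were higher and 20 lower in T, with a median log2 difference of 0.0017, against 0.0061 over all symbols. The T and C ranges lay apart for 5 of the 40 (Mcm10, Ccnb1, Kif11, Ect2 and Racgap1), against 19.1% of all symbols. As the RNA is that of bulk liver, the number of cells in cycle and the amount of RNA per such cell cannot be told apart. The centre of the 40 moved with the scaling, to 0.12 with median scaling and to -0.30 with the scanner software's processed signal, where the medians of all symbols were 0.12 and -0.40.

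The Gas1 plasmid on top of DEN gave no call either. In G against T, 0 of 40 passed, where 0.127% of all symbols did (28 symbols, 0.0272% as higher in G and 0.0999% as lower), and the smallest adjusted p was 0.313, that of Mcm6. At an unadjusted p under 0.05 there were 3 of the 40, against 10.9% of all symbols. There, 26 of the 40 were higher in G and 14 lower, with a median of 0.03 against -0.0087 over all symbols. Only Mcm6 of the 40 had mice that did not overlap, against 3.13% of all symbols.

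In G against C, the groups that differ in both DEN and plasmid, Mcm10 alone of the 40 passed, where 0.427% of all symbols did (94 symbols) and 0.177% did as higher in G. At an unadjusted p under 0.05 there were 3 of the 40 (Mcm10, Racgap1 and Rrm1), against 13.2% of all symbols. The groups did not overlap for Mcm10, Racgap1 and Kif11, against 5.86% of all symbols. The median log2 difference of the 40 was 0.02, against -0.003 over all symbols. The 3 comparisons share groups, so their values are not independent of each other.

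**Figure D2:**
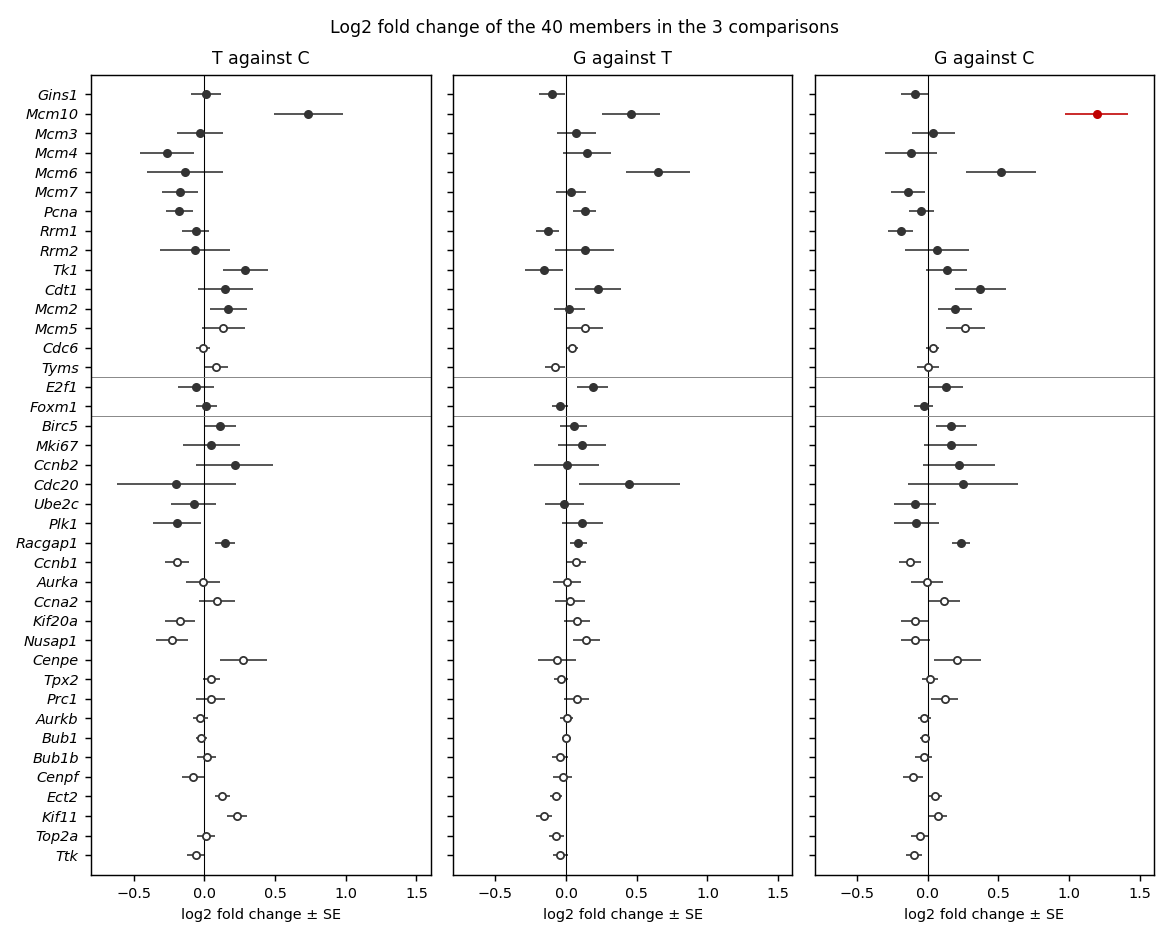
Log2 fold change with its SE for the 40 genes in the 3 comparisons, with replication genes at the top, the 2 regulators between the lines and mitosis genes below. Filled points were well above background on at least 8 of 15 arrays, open points on fewer, where a difference is one near the background, and the red point, Mcm10 at 1.19 in G against C, is the one with an adjusted p under 0.05.

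The 95% intervals of the differences give the precision under the scaling used here. In T against C, the interval stayed between a halving and a doubling for 38 of the 40 genes, and reached past it for Mcm10 and Cdc20. It did so for 38 in G against T, where Mcm6 and Cdc20 reached past it, and for 37 in G against C, where Mcm6, Mcm10 and Cdc20 did. The median half-width was 0.33 for the replication genes and 0.23 for the mitosis genes in T against C. The narrower intervals of the mitosis genes include those of probes near the background, where the added offset understates any change. With the processed signal, which has no such offset, 5 mitosis genes near the background had T against C differences past a halving, from -1.20 for Bub1b to -2.20 for Nusap1, with Cenpf, Ccnb1 and Kif20a between them, and none was called (adjusted p from 0.0728 to 0.0938). The median of all symbols under the processed signal was -0.40 in T against C, and these differences are not corrected for it. With median scaling the Mcm10 difference was 1.72, where the median of all symbols was 0.12.

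Mcm10, a replication factor that binds the MCM2-7 helicase and is needed to start unwinding, was the member with the largest group difference. Its single probe lies at chr2:4911785-4911844 (mm9) and was well above background on all 15 arrays. Mcm10 was also the brightest of the replication genes, at a mean of 10.35 in C, with Mcm7 next at 8.97. No other probe of Mcm10 was there to set against this one, and whether it reads Mcm10 alone was not tested. The normalised log2 level was 10.12, 10.47 and 10.47 in the C mice, 10.97, 10.65, 11.54 and 11.20 in the T mice, and 11.90, 11.82, 11.41, 11.69, 11.64 and 10.83 in the G mice. Every T and G mouse lay above every C mouse, while the T and G ranges overlapped. The means were 10.35 ± 0.20 in C (SD, n = 3), 11.09 ± 0.37 in T (n = 4) and 11.55 ± 0.39 in G (n = 6). Mcm10 was 2.29-fold higher in G than in C, a log2 difference of 1.19 (SE 0.23, adjusted p = 0.0461). T lay above C by 0.74 (SE 0.24, adjusted p = 0.118) and G above T by 0.46 (SE 0.21, adjusted p = 0.444), and neither passed. The G against C call lay close to the threshold. It was lost when any one of the 3 C mice, of G1 to G5, of T1 or of T4 was left out, with adjusted p from 0.0516 to 0.184, and was kept without G6, T2 or T3. It was also lost with median scaling (adjusted p = 0.0797), cyclic loess (0.0875) and the scanner software's processed signal (0.121). Within slide 1 the log2 difference was 0.83 (adjusted p = 0.605) and within slide 2 it was 1.50 (adjusted p = 0.0534).

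Of the genes of the MCM2-7 helicase itself, none passed in any comparison, and Mcm2 and Mcm5 were the ones whose means lay, like those of Mcm10, in the order C, T, G. Mcm6 had the largest difference of them. Its log2 level was 8.27, 7.55 and 7.91 in C, 7.69, 7.84, 7.63 and 7.94 in T, and 9.37, 8.37, 7.97, 8.21, 8.16 and 8.46 in G. Every G mouse lay above every T mouse, and the C mice spread over both. The differences were 0.65 for G against T (SE 0.23, adjusted p = 0.313), 0.52 for G against C (SE 0.25, adjusted p = 0.399) and -0.13 for T against C (SE 0.27, adjusted p = 0.834). Mouse G1, at 9.37, stood apart from the other G mice (7.97 to 8.46), and without it G against T was 0.46 (adjusted p = 0.231).

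Mcm4 was lower in T than in C by 0.27 (SE 0.19, adjusted p = 0.485), at 7.73, 7.28 and 7.19 in C against 7.16, 7.08, 6.95 and 7.34 in T, ranges that overlap. G mouse 4 has no Mcm4 value, as its spot was flagged, and the other G mice lay between 6.96 and 7.81. Mcm7 was at 8.97 ± 0.11 in C (SD, n = 3), 8.80 ± 0.24 in T (n = 4) and 8.83 ± 0.17 in G (n = 6), and Mcm3 at 6.90 ± 0.11, 6.86 ± 0.10 and 6.93 ± 0.31. None of their differences passed. The groups of Mcm3, Mcm4 and Mcm7 overlapped in all 3 comparisons.

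Mcm2 and Mcm5 were above background on no C array, so their levels in C are only limits. Mcm2 was above background on 4 of 5 T and 6 of 6 G arrays, and Mcm5 on 2 of 5 and 5 of 6. Against the weakest signal that still counted as above background in C, Mcm2 in G was at least 1.00-fold (adjusted p = 0.538) and Mcm5 at least 1.05-fold higher (adjusted p = 0.444). The measured Mcm2 levels were 6.29, 6.15 and 6.13 in C, 6.32, 6.48, 6.18 and 6.46 in T, and 6.74, 6.54, 6.39, 6.22, 6.24 and 6.14 in G. The 3 ranges overlapped.

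The licensing factors that load the helicase were Cdt1 and Cdc6. Cdt1 was at 6.995, 6.15 and 6.96 in the C mice, 6.78, 6.80, 6.83 and 6.98 in T, and 7.31, 6.95, 7.18, 7.35, 6.97 and 6.69 in G. One C mouse, C2, lay well below all others, and the remaining C mice lay inside the range of G. G against C was 0.37 (SE 0.18, adjusted p = 0.401), and 0.0975 without C2 (adjusted p = 0.851), and G against T 0.23 (SE 0.16, adjusted p = 0.664). Cdc6 was above background on no array, with measured levels of 5.85 to 6.02 in all 13 mice, so no change in it could be seen. Gins1, a subunit of the GINS complex of the active helicase, was measured on all arrays at 6.89 ± 0.13 in C (SD, n = 3), 6.90 ± 0.14 in T (n = 4) and 6.80 ± 0.16 in G (n = 6).

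Pcna, the clamp that holds DNA polymerase on its template, passed in no comparison. It was at 8.43, 8.18 and 8.37 in C, 8.29, 8.02, 8.18 and 8.11 in T, and 8.46, 8.30, 8.20, 8.43, 8.19 and 8.11 in G. T lay below C by 0.18 (SE 0.10, adjusted p = 0.33), with a 95% interval from -0.39 to 0.03. G against C was -0.05 (SE 0.09, adjusted p = 0.875), with an interval from -0.24 to 0.15. Under the 30 alternatives given below, T against C ran from -0.25 to 0.56 and G against C from -0.12 to 0.63.

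Among the genes of nucleotide supply, Tk1, the thymidine kinase of dividing cells, had the largest T against C difference after Mcm10 of those measured on every array of a group, 0.29 (SE 0.16, adjusted p = 0.331). Its levels were 7.90, 8.23 and 8.39 in C and 8.48, 8.70, 8.27 and 8.40 in T, and the 6 G mice spanned 7.93 to 8.62. The groups overlapped. Rrm1 and Rrm2 encode the large and small subunits of ribonucleotide reductase. Rrm1 was lower in G than in C by 0.19 (SE 0.09, adjusted p = 0.377), from 7.23 ± 0.17 (SD, n = 3) to 7.03 ± 0.15 (n = 6). Rrm2 ran from 6.86 to 7.95 over all mice, with group means of 7.26 in C, 7.20 in T and 7.33 in G. Thymidylate synthase, Tyms, was above background on no array.

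**Figure D3:**
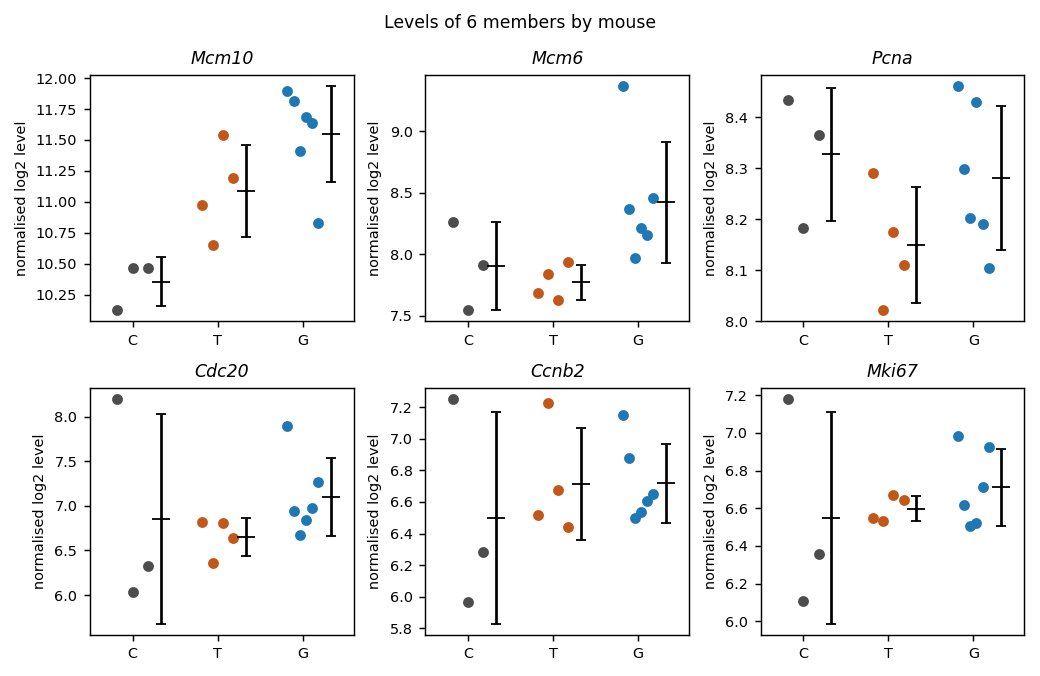
Normalised log2 level of Mcm10, Mcm6, Pcna, Cdc20, Ccnb2 and Mki67 in each mouse (points) of groups C (3), T (4) and G (6), with the mean and SD beside them; each panel has its own axis. For Mcm10 all C mice lie below all others, and for Cdc20 a single C mouse at 8.20 and a single G mouse at 7.89 lie above the rest.

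The 2 regulators did not separate the groups. E2f1 was at 6.74, 6.89 and 7.29 in C, 6.93, 6.80, 6.997 and 6.93 in T, and 7.26, 7.23, 6.97, 6.82, 7.23 and 7.13 in G. G against T was 0.19 (SE 0.11, adjusted p = 0.563). Foxm1 lay between 5.97 and 6.26 in all mice, and its differences were at most 0.04 in size, with adjusted p of 0.845 or more.

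Among the mitosis genes, Mki67, which codes for the proliferation antigen Ki-67, was above background on 14 arrays. It was at 7.18, 6.11 and 6.36 in C, 6.55, 6.53, 6.67 and 6.64 in T, and 6.99, 6.62, 6.51, 6.52, 6.71 and 6.93 in G. The C mice spanned the whole range of the other groups, and C1 was the highest of all 13 mice. T against C was 0.05 (SE 0.20, adjusted p = 0.929), with a 95% interval from -0.39 to 0.49. It was 0.37 without C1 (adjusted p = 0.227) and -0.17 without C2 (adjusted p = 0.708). G against T was 0.11 (SE 0.17, adjusted p = 0.859), with an interval from -0.26 to 0.48.

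Ccnb2, a B-type cyclin, was at 7.25, 5.97 and 6.28 in C, 6.52, 7.23, 6.67 and 6.44 in T, and 7.15, 6.88, 6.50, 6.53, 6.61 and 6.65 in G. One mouse of each group, C1, T2 and G1, lay above 7, and the group means were 6.50 ± 0.67, 6.71 ± 0.36 and 6.72 ± 0.25. Its T against C difference was 0.21 (SE 0.27, adjusted p = 0.718), 0.59 without C1 (adjusted p = 0.24) and -0.05 without C2 (adjusted p = 0.949). Ccnb1, the other B-type cyclin, was above background on 2 C arrays, no T array and 4 G arrays. Its measured levels were 6.41, 6.23 and 6.13 in C and 5.98 to 6.12 in T, which did not overlap, with an adjusted p of 0.217. Of its 3 probes, the one most often above background (1 C, no T and 4 G arrays) gave -0.06 in T against C. On that probe T lay inside the range of C, and mice C2, T2, G4 and G5 had no value. The signal in C was no higher than the weakest one called above background in T, so no fold is given.

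Cdc20, the activator of the APC in metaphase, varied most between mice of one group. It was at 8.20, 6.04 and 6.32 in C, 6.81, 6.36, 6.81 and 6.64 in T, and 7.89, 6.94, 6.68, 6.84, 6.98 and 7.27 in G. The SD was 1.17 in C, 0.22 in T and 0.43 in G. The T against C difference was -0.20 (SE 0.42, adjusted p = 0.846), and without mouse C1 it was 0.47 (adjusted p = 0.441). G against C was 0.25 (SE 0.39, adjusted p = 0.835), 0.92 without C1 (adjusted p = 0.259) and -0.16 without C2 (adjusted p = 0.918). Leaving out 1 control mouse thus turned the sign of either difference.

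Plk1, the Polo kinase of mitotic entry, and Ube2c, the ubiquitin-conjugating enzyme that works with the APC, showed the same mouse on top. Plk1 was at 6.99, 6.41 and 6.19 in C, 6.21 to 6.50 in T and 6.22 to 6.82 in G. Ube2c was at 6.93, 6.10 and 6.18 in C, 6.25 to 6.40 in T and 6.12 to 6.47 in G. The brighter of the 2 Ube2c probes, above background on 2 C, 3 T and 5 G arrays, had no value in C3, T2, G5 and G6. Those mice were read from the other probe alone, above background on 1 C, no T and 1 G array. The brighter probe gave -0.31 in T against C and the other 0.01. Birc5, survivin of the chromosomal passenger complex, was at 6.54, 6.09 and 6.21 in C, 6.30 to 6.48 in T and 6.27 to 6.66 in G. For Plk1, Ube2c and Birc5 the C range enclosed the T range, and no difference passed (adjusted p of 0.548 or more).

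Racgap1, a GTPase-activating protein of cytokinesis, was above background on no C array, 2 of 5 T arrays and all 6 G arrays. Its measured levels were 6.01, 5.97 and 6.08 in C, 6.23, 6.14, 6.23 and 6.08 in T, and 6.31, 6.43, 6.24, 6.12, 6.20 and 6.23 in G. Every T and G mouse lay above every C mouse although T4, at 6.0832, and C3, at 6.081, were nearly equal. The adjusted p was 0.143 for G against C and 0.26 for T against C. As the weakest signal called above background in C was higher than the G mean, no fold is given. One of its 2 probes was above background on no array, and the G mean includes it. The other, above background on no C array, gave a measured 0.31 in G against C (SE 0.08). In limma over the 29522 probes its adjusted p was 0.114.

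The other mitosis genes were near the background. Aurka, the Aurora kinase of centrosomes, Ccna2, Kif20a, Nusap1, Cenpe, Tpx2 and Prc1 were each above background on 1 to 5 arrays, and Ccna2 only on G arrays (5 of 6). Cenpe has no value in 3 mice (C3, G4 and G5). Top2a, topoisomerase II alpha, lay between 5.71 and 6.01 in all mice, and the checkpoint kinase genes Bub1, Bub1b and Ttk between 5.80 and 6.15. The spindle motor Kif11 was at 5.84, 5.90 and 5.92 in C, 5.98, 6.32, 6.05 and 6.11 in T, and 5.93 to 5.99 in G. These values come from a probe above background on no array, so they give no fold.

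In single mice the detected genes moved together more than the groups did. Of the 21 genes above background on at least 8 arrays, C1 was the highest C mouse for 15 and G1 the highest G mouse for 16, against 32.7% and 23.7% of the 11270 symbols measured as often. The highest of all 13 mice was C1 for 7 of the 21 and G1 for 9, against 11.6% and 10.8% of the same 11270 symbols. By list, C1 led all mice for 5 of the 7 detected mitosis genes and 1 of the 12 detected replication genes, and G1 for 1 and 8. The SD between C mice had a median of 0.46 over those 7 mitosis genes, 0.073 in T and 0.20 in G, against 0.14, 0.12 and 0.15 over all symbols measured as often.

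**Figure D4:**
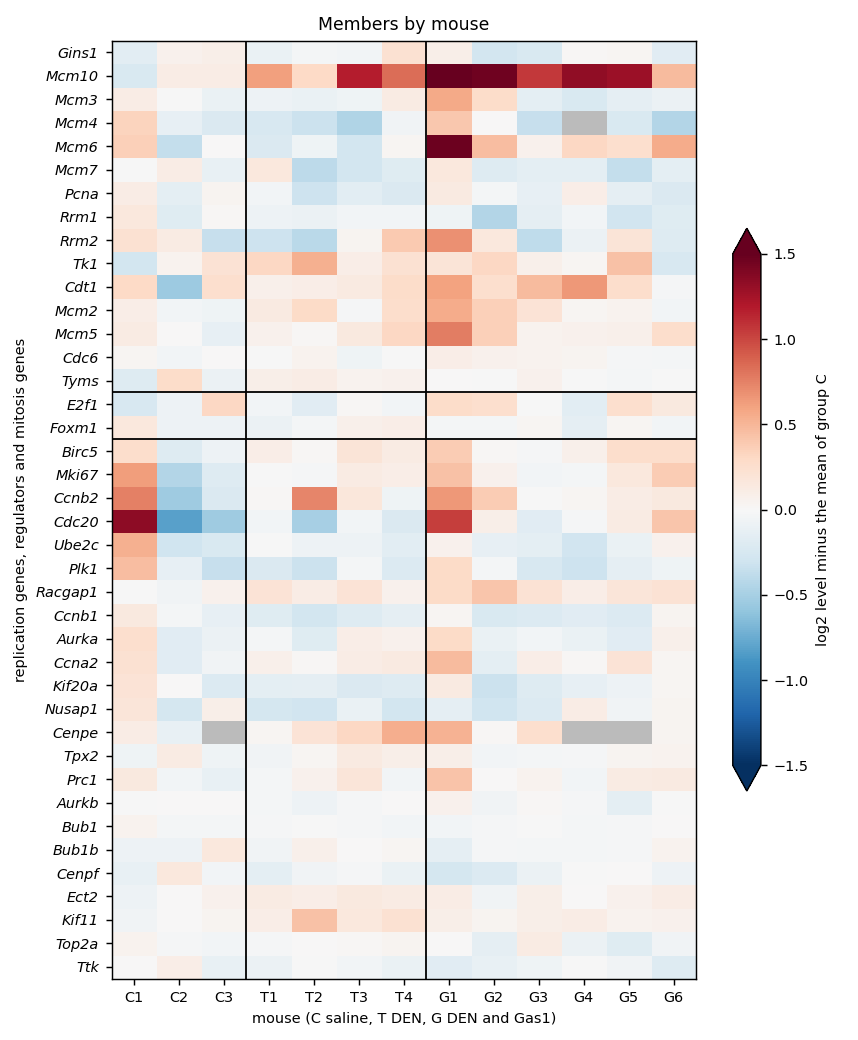
Log2 level of each gene in each of the 13 mice minus the mean of the C mice, with colours cut at -1.5 and 1.5 and missing values in grey. The Mcm10 row is darker in T and G than in C, and the columns of C1 and G1 are the warmest, C1 in mitosis rows such as Cdc20 and G1 in replication rows such as Mcm6.

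Array values and cell type lists were then set out for mice C1 and G1. C1 had 18354 and G1 21047 spots above background, within the range of their groups, and both arrays lay on slide 2. Their flagged spots numbered 218 and 403, in a range of 218 to 3692 over the arrays. Of the 9 cell type lists examined, the C1 mean was the highest of C for hepatocyte, T and NK cell, macrophage, cholangiocyte and stellate genes, and lowest for B cell and neutrophil genes. The stellate list (7 genes, all above background on some array and 4 on every array) was at 7.12 in C1, with 6.78 to 7.12 in C, 6.68 to 6.90 in T and 6.72 to 7.46 in G. Of its genes, Des, Reln, Pdgfrb, Col1a1 and Col3a1 were highest of C in C1. Lrat (6.18, against 6.48 and 6.51) and Acta2 (6.55, against 6.92 and 6.92) were lowest there. The macrophage list (8 genes) was at 7.70 in C1, with 7.35 to 7.70 in C, and the cholangiocyte list (6 genes) at 6.57, with 6.48 to 6.57 in C. Of the macrophage genes, Clec4f, Csf1r, Cd5l, Marco and Vsig4 were highest of C in C1, while Emr1 and Cd68 were not and Timd4 was lowest. Of the cholangiocyte genes, Krt19 alone was highest in C1, at 7.06, and Cftr was lowest, at 6.01. For G1, the T and NK cell list (10 genes, Klrb1c above background on none) was highest, at 6.79 with 6.63 to 6.79 in G, and so was the endothelial list (7 genes), at 7.37 with 7.19 to 7.37. The hepatocyte list of G1 was also the highest of G, at 15.01 with 14.78 to 15.01. Its B cell list was the lowest, at 6.26 with 6.26 to 6.72. Single genes differed from their lists. Of the T and NK cell genes, Cd3d, Cd2, Lck and Gzma were highest in G1 and Nkg7 lowest. Of the endothelial genes, Cdh5 alone was highest in G1. Over the groups, the only list genes called were Ttr (lower) and Emr1 (higher) in T against C. The part of array signal, slide, flagged spots and cell types in the values of C1 and G1 was not tested.

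Replication and mitosis genes were then set against each other within each mouse, as the mean log2 distance from the C mean over each list. The replication mean was 0.00 ± 0.06 in C (SD, n = 3), 0.04 ± 0.07 in T (n = 4) and 0.15 ± 0.18 in G (n = 6). The mitosis mean was -0.0013 ± 0.19, 0.0040 ± 0.03 and 0.03 ± 0.09. Its values by mouse were 0.22, -0.13 and -0.09 in C, -0.03 to 0.05 in T and -0.04 to 0.20 in G. C2 and C3 thus lay below every T and G mouse, and C1 above them all. The G replication mean was 0.086 ± 0.086 without G1 (n = 5) and 0.08 ± 0.17 over the 14 genes other than Mcm10 (n = 6), and the median replication gene differed by 0.04 in G against C. In both lists the group means differed by less than the largest SD between mice of one group. Replication minus mitosis was 0.0014 ± 0.13 in C, 0.04 ± 0.08 in T and 0.12 ± 0.14 in G. By mouse it was -0.15, 0.08 and 0.07 in C, 0.05, -0.01, -0.03 and 0.15 in T, and 0.28, 0.22, 0.06, 0.19, 0.08 and -0.11 in G. The ranges of the 3 groups overlapped, and C1 and G6 were the mice where mitosis genes stood highest over replication genes. Over the 12 replication and 7 mitosis genes above background on at least 8 arrays, the difference was 0.00 ± 0.42 in C, 0.03 ± 0.12 in T and 0.04 ± 0.17 in G. These differences depended on the scaling, as replication minus mitosis in T against C was 0.04 here, 0.41 with median scaling and 0.62 with the processed signal, and in G against T it was 0.08, 0.05 and -0.24. As the genes were listed with results known, no test was made of these means.

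**Figure D5:**
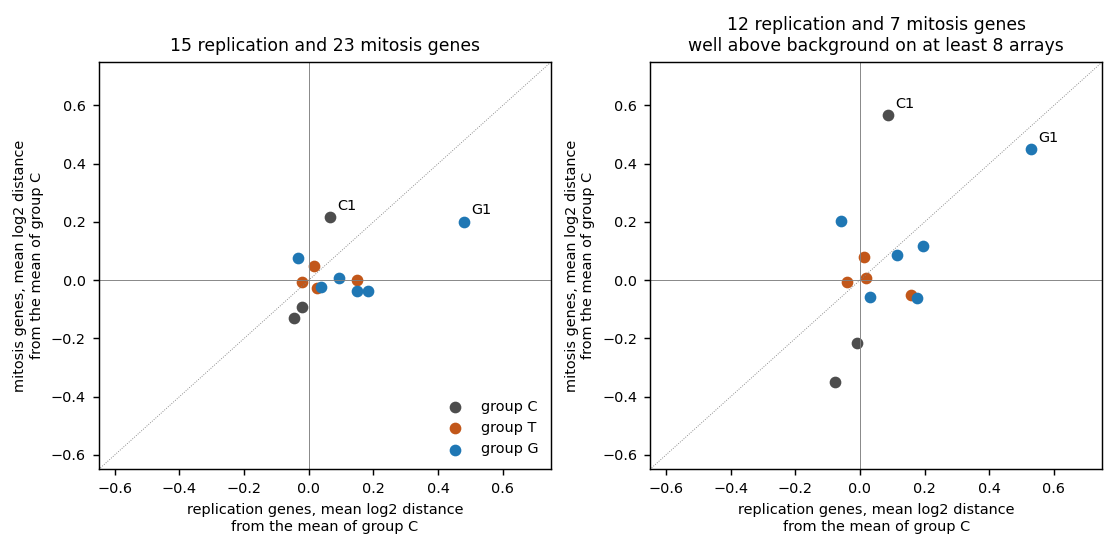
Mean log2 distance from the C mean over replication genes (x) and mitosis genes (y), 1 point per mouse, for all 15 and 23 genes (left) and for the 12 and 7 above background on at least 8 arrays (right); the dotted line marks equal values. C1 and G6 lie furthest above the line and G1 furthest to the right. In both panels C2 and C3 lie lowest, below every T and G mouse, while the T mice and the other G mice are mixed.

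Other genes of the same processes gave few calls. In T against C, 1 of 45 further replication genes and 1 of 64 further mitosis genes passed, where 2.38% of all symbols did, and 9 (20%) and 12 (18.8%) had an unadjusted p under 0.05, against 20.3% of all symbols. The replication gene was Rpa1, a subunit of the single-strand binding protein RPA, which fell by 0.42 (SE 0.08, adjusted p = 0.0205), from 9.19 ± 0.09 in C (SD, n = 3) to 8.77 ± 0.09 in T (n = 4). Every T mouse (8.68 to 8.89) lay below every C mouse (9.10 to 9.27), and G lay between at 8.98 ± 0.11 (n = 6). The mitosis gene was Ndc80, of the kinetochore. It was above background on 3 of 4 C arrays and no T array, and was at least 1.41-fold higher in C (adjusted p = 0.0453). Its measured levels were 6.98, 6.67 and 6.64 in C and 5.99 to 6.14 in T. In G against T and in G against C, 0 of 45 and 0 of 64 passed, with smallest adjusted p of 0.258 and 0.197, then 0.0673 and 0.197. At an unadjusted p under 0.05 there were 4 and 7, against 10.9% of all symbols, then 8 and 7, against 13.2%. The smallest adjusted p, 0.0673, was that of the primase gene Prim1, at 6.69 ± 0.16 in C, 7.02 ± 0.12 in T and 7.07 ± 0.10 in G. Of the 64, 23 were above background on no array, among them Cdk1.

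Where a gene had several probes, these differed in sign most often in T against C. Of the 10 genes with 2 or 3 probes, all probes shared a sign in 4 for T against C, 9 for G against T and 7 for G against C. For Mki67, the probes gave 0.12 and -0.02 in T against C. Of the 3 Birc5 probes, one was above background on 14 arrays and gave 0.43 in G against C, while the others, above it on no array and on 1, gave 0.03 and 0.04.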

How the data were processed

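The authors hybridised Cy3-labelled liver RNA to Agilent arrays (62976 spots) and deposited the scanner output of Feature Extraction 10.7.3.1, whose values are spot intensities, with other columns that flag spots (well above background, saturated, outlier), per the file headers. No spot was saturated. They also deposited a table of log2 values after normexp and quantile normalization, which was used as an alternative and differed from the values here by a median of 0.0029. Here the mean signals were corrected with normexp (offset 50), spots flagged as outliers were set to missing, and the 59305 spots that are not controls were quantile normalized on the log2 scale. Spots of a probe were averaged, probes were centred, averaged by gene symbol and set back to their mean level. Arrays of one RNA code were averaged (15 arrays, 13 mice).

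For each comparison, limma 3.58.1 (R 4.3.3; lmFit, eBayes without trend) was run over 22032 symbols with Benjamini-Hochberg adjustment and a threshold of 0.05, and the fit was tested on simulated data. Nothing says that replicates were housed or treated apart, so the p-values measure the spread between these livers. Arrays have no read depth, and their number limits the precision. Where a gene was above background on no array of a group, its level there is a limit, and the fold is a lower bound, the brighter group's mean over the weakest signal called above background in the dimmer group. The 40 members, the lists and the motifs were chosen with earlier results of these data known. Levels by mouse are given for the called members, the 5 largest changes in each comparison among genes measured on every array of a group, the 3 brightest of each list and Mki67, Pcna, Top2a, Ccnb1, Mcm2 and Cdc6, while other members named with values were chosen after these were seen. Replicate numbers were compared between groups and taken as names, a check that cannot exclude that they mark a block. Promoters were read from RefSeq with Python 3.11.15.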

Additional observations from a re-analysis of the deposited data

Results flagged for a closer look

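Of 80 sets of values, one for each of the 40 genes in T and in G, 4 held a mouse far from the others of its group by Dixon's criterion, where chance gives about 1 in 20. These were Mcm6 in G1, at a log2 level of 9.37 with the nearest G mouse at 8.46, Mcm3 in T4, at 7.01 with the nearest T mouse at 6.82, Nusap1 in T3, at 6.14 with the nearest at 5.98, and Tyms in G3, at 6.03 with the nearest at 5.97. Nusap1 was above background on no T array and Tyms on no array at all. The 3 C mice were too few for this criterion.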

How the results depend on the processing

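Each count and each named gene was recomputed under 30 alternatives, 13 of which leave out 1 mouse. The number of the 40 genes called was 0 in G against T under all 30. In T against C it was 0 in the values reported, 2 with median scaling (Mcm10 and Tk1), 2 with the 15 arrays as separate mice (Mcm10 and Kif11), 1 with slide as a term and RNA code as a random block (Kif11), and 0 to 1 with a mouse left out (Mcm10 without G6, Kif11 without T1). In G against C it was 1, always Mcm10 where any was called, and 0 with median scaling, cyclic loess, the software's processed signal scaled to its 75th percentile, the plain mean of the probes, within slide 1 or slide 2, and with the methods' t-test of either kind, and 0 to 1 with a mouse left out. The call of Mcm10 held under 11 of the 30 alternatives, with adjusted p from 0.0085 to 0.605, and its log2 difference was positive in all 30 (0.83 to 2.04). The methods' t-test with equal variances gave 4, 3 and 3 of the 40 genes below the unadjusted threshold (T against C, then G against T, then G against C), against 17.5%, 10.5% and 10.1% of all symbols, the Welch form 3, 2 and 2, against 13.5%, 9.92% and 9.14%, and both 0 after Benjamini-Hochberg adjustment.

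Same-numbered mice had deviations with correlations from -0.31 to 0.25. The numbers were taken as names, although such correlations cannot exclude a shared block. With the number as a replicate block, 0 of the 40 genes were called in each comparison, Mcm10 in G against C had an adjusted p of 0.06, and over all symbols 268, 6 and 55 were called in the 3 comparisons in that order, where the fit without it called 525, 28 and 94.

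The difference of replication and mitosis means, 0.04 in T against C, 0.08 in G against T and 0.12 in G against C, depended on the scaling. With median scaling it was 0.41 in T against C and 0.46 in G against C, and with the processed signal 0.62, -0.24 and 0.38 in the same 3 comparisons. With only probes above background on every array of a group it was -0.0541 in T against C, -0.0549 in G against T and -0.11 in G against C. Without Mcm10, a choice made after seeing the data, it was -0.0117, 0.055 and 0.04. Median scaling shifted the median of all symbols to 0.12 in T against C, and the processed signal to -0.40 in T against C and -0.30 in G against C.

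Over all symbols, calls ranged from 0 (both forms of the t-test) to 2832 (median scaling, 2818 of them higher, against 268 of 525) in T against C, from 1 (Welch) to 263 (15 arrays as separate mice) in G against T, and from 0 (median scaling, Welch, or G3 left out) to 342 (15 arrays) in G against C. Signal over background limits the mitosis genes: 18 of the 40 passed the filter on dim probes, and in the other 22 a change near the background can be missed. The causes of the changes with scaling were not tested.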
